A study of Mus musculus with 6 samples.

Results

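The values described are transcript levels of 34 genes that mark endothelial cells, the cells that line blood vessels. They were taken as the rows of the deposited count table whose symbol is on a given list, and 34 of its 22905 gene symbols matched. For description they were arranged by role into 6 scavenger genes of the liver sinusoid (Stab1, Stab2, Lyve1, Clec4g, Oit3 and Mrc1), 5 other sinusoidal genes (Gpr182, Ehd3, Dnase1l3, Scarb1 and Scarf1), 7 capillary genes (Plvap, Cd34, Emcn, Kit, Aqp1, Cd36 and Fabp4) and 16 pan-endothelial genes. The genes were listed by name, with earlier results of these data known. RNA-seq libraries were made from primary mouse hepatic stellate cells, pericytes of the liver sinusoid that store vitamin A. All animals had the genotype BucheKI/KI-Hep and had received CCl4, a liver toxin used to model fibrosis, and 3 libraries were labelled DOX and 3 were labelled PBS. The study describes raised butyrylcholinesterase in hepatocytes ahead of the cell isolation, so the contrast of DOX with PBS asks how RNA of the isolated cells differed with it. As all libraries share the genotype, raised butyrylcholinesterase and DOX itself cannot be told apart. The labels give no age or sex and say neither how DOX acts on the allele nor whether animals were pooled. Animals without CCl4 or of another genotype were not analysed here.

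Liver sinusoidal endothelial cells are a specialised capillary lining with open pores and no continuous basement membrane. They clear waste molecules from the blood with scavenger receptors, among them the stabilins (Stab1 and Stab2) and the mannose receptor (Mrc1). In injured liver they are known to lose pores and scavenger genes and to gain features of ordinary capillaries, a change called capillarisation. General endothelial genes such as Pecam1, an adhesion molecule of endothelial cell contacts, are shared with vessels of other organs.

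Promoter windows were available for 21 of the 34 genes in RefSeq (GRCm38.p6), each reaching 250 bases before to 50 bases after a start. The starts the table uses for Clec4g and Stab2 lie inside the outermost end of the annotated gene, and that of Adgrl4 is its outermost end. Windows of 3 genes are printed in the sense direction because these genes behaved differently. Adgrl4 fell in the DOX libraries, Clec4g was at a higher level in every DOX library without passing the threshold, and Stab2 varied more within each group than between the groups. Capitals mark AGGAAG or its reverse complement CTTCCT, the letters of a core motif of ETS factors, a family that binds many endothelial promoters.
Adgrl4: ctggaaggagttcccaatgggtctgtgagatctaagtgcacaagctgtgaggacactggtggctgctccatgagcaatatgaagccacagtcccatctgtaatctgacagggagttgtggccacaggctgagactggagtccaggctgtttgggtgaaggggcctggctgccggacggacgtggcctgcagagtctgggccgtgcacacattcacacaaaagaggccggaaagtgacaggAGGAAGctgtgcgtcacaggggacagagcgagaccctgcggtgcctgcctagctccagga
Clec4g: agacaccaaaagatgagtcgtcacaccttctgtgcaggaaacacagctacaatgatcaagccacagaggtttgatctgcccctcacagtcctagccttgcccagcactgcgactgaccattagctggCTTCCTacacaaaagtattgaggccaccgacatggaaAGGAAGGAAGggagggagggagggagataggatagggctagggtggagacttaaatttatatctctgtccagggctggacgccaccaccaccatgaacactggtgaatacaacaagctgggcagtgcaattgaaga
Stab2: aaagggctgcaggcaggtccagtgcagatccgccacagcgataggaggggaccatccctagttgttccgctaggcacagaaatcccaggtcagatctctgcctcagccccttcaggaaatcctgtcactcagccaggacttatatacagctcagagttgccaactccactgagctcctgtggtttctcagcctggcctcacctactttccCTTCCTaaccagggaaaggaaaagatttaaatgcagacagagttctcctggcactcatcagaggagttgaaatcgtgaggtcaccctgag
The windows lie at chr3:151437632-151437931 on the plus strand (Adgrl4), chr8:3720602-3720901 on the minus strand (Clec4g) and chr10:87007893-87008192 on the minus strand (Stab2), in GRCm38. The Clec4g window holds 3 matches, of which 2 overlap each other. The letters occurred on either strand in 19 of the 26 windows of these genes (73.1%), as some genes have more than 1 window, and in 35.4% of all 32851 windows of the table. The GATA letters AGATAA occurred in 3.85% of the windows of the endothelial genes and 11.2% of all windows, the SOX letters AACAAT in 15.4% and 10.7%, and the KLF letters CCACCC in 34.6% and 31.5%. A match of letters is a description of the sequence and no site, and the ETS letters stand in the window of Adgrl4, which fell, and in those of genes that did not pass the test.

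Libraries held 36220282 to 37707364 counts. In CPM (counts scaled to library size with TMM factors, which correct for the make-up of the library) 1 read was worth 0.0253 to 0.0293. The labels do not say that replicates were separate animals or cultures. The p-values therefore cover the spread among these 6 libraries, and that spread may be technical. Bche, the gene of butyrylcholinesterase, had 582 to 3639 reads in the DOX libraries and 8 to 26 in the PBS libraries (log2 fold change 6.91, SE 0.85, edgeR quasi-likelihood adjusted p = 0.0206). DESeq2 called it (adjusted p = 6.8e-14) and limma-voom did not (adjusted p = 0.0697). Bche had 35.8, 16.4 and 99.3 CPM in DOX replicates 1, 2 and 3, and 0.212, 0.680 and 0.354 CPM in PBS replicates 1, 2 and 3. In the same order 20 hepatocyte markers summed to 1479, 627 and 4860 CPM, and to 358, 638 and 703 CPM. The part of hepatocyte RNA in the Bche values was not tested. Endothelial transcripts were abundant in libraries labelled as stellate cells. Cdh5, the cadherin that defines endothelial junctions, had 582, 589 and 499 FPKM (counts per kilobase of transcript and library total) in DOX replicates 1, 2 and 3, and 595, 719 and 717 FPKM in PBS replicates 1, 2 and 3. Lrat, Gfap and Nkx3-2, genes that define stellate cells, were low. Lrat, the enzyme that stores vitamin A as esters, had 0.525, 0.347 and 0.416 FPKM in DOX and 0.258, 0.222 and 0.693 FPKM in PBS. Gfap had at most 3 reads in any library, and Nkx3-2 had 1 read in DOX replicate 3 and 0 in the other libraries. Over all 18 stellate markers the summed level was 809 to 1270 CPM in DOX and 659 to 1476 CPM in PBS, of which Dcn, a matrix proteoglycan also made by fibroblasts, was the most abundant. The mean log2 CPM of these markers was 3.46 to 3.69 in the DOX libraries and 2.91 to 4.03 in the PBS libraries. None of the 16 stellate markers tested passed the threshold, and none had an unadjusted p under 0.05 in edgeR or was called by DESeq2 or limma-voom. In bulk RNA, fewer cells of a type and less RNA per cell cannot be told apart, and the cells in which each endothelial gene was transcribed cannot be assigned.

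The levels of the 34 genes spanned a wide range on the FPKM scale, which is per length and so allows genes to be compared. In the PBS libraries Pecam1 (266 ± 15.9 FPKM), the hyaluronan receptor Lyve1 (258 ± 40.3) and Fabp4, a fatty acid binding protein of capillaries (254 ± 51.0), were highest and did not differ beyond their spread (SD, n = 3). In the DOX libraries Lyve1 had 276 ± 47.8 FPKM, Fabp4 242 ± 21.6 FPKM and Pecam1 208 ± 3.20 FPKM. Low in both groups were Cav2, a subunit of membrane caveolae, with 3.09 FPKM in DOX and 4.48 FPKM in PBS, and Emcn, a sialomucin of capillaries and veins. Mmrn1, a secreted multimerin found in lymphatic endothelium and platelets, had 6, 8 and 15 reads in the DOX libraries and 20, 1 and 8 in the PBS libraries, and was left out of the test by the low-count filter. Lyve1 was the highest scavenger gene in both groups. The lowest was Oit3 in DOX, with 30.2 FPKM in DOX and 57.2 FPKM in PBS, and Stab2 in PBS, with 36.2 FPKM in DOX and 40.1 FPKM in PBS. The genes together took 0.860%, 0.838% and 0.767% of all counts in DOX replicates 1, 2 and 3, and 0.879%, 1.001% and 1.01% in PBS replicates 1, 2 and 3. Their share was lower in every DOX library than in any PBS library. Scaled with TMM factors their summed levels overlapped, with 7609 to 9321 CPM in DOX and 8602 to 9603 CPM in PBS.

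**Figure D1:**
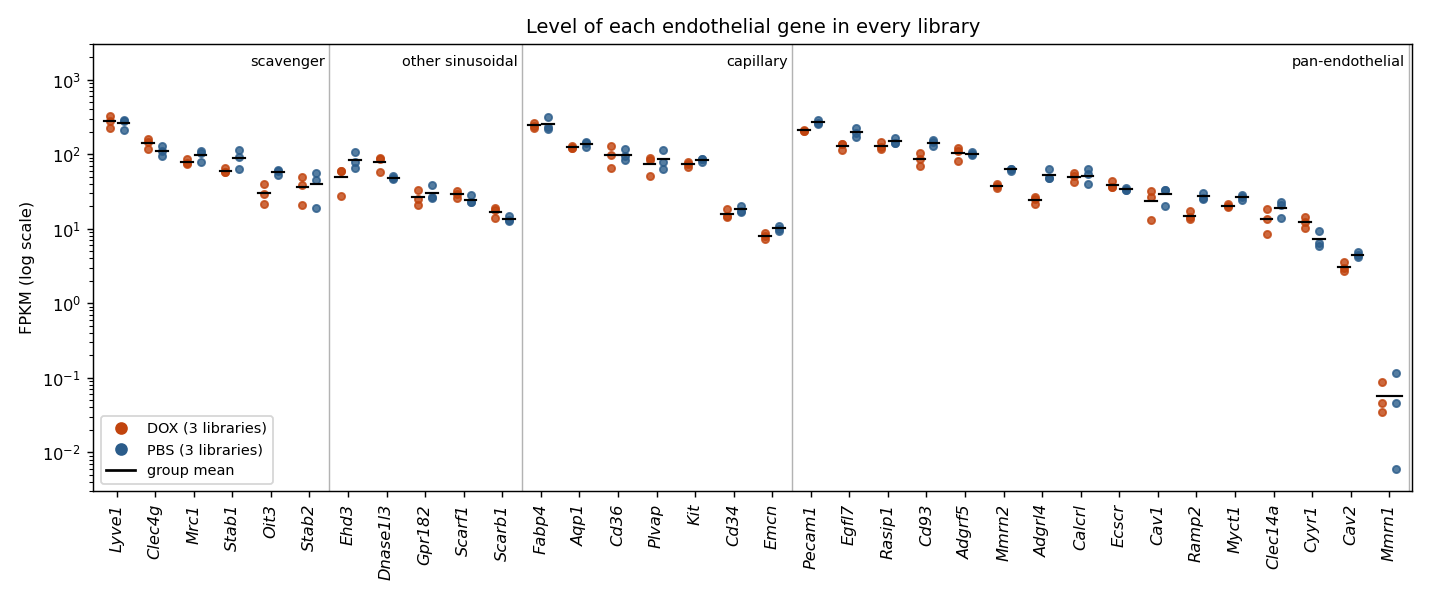
Level of each of the 34 endothelial genes in FPKM on a log axis, by library. Orange points are the 3 DOX libraries, blue points the 3 PBS libraries and bars the group means. Genes are grouped by role, and Mmrn1 stands far below all others.

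In the comparison of DOX with PBS, 3 of the 33 endothelial genes tested fell in the DOX libraries and none rose at an edgeR quasi-likelihood adjusted p of 0.05. The 3 were the adhesion receptor Adgrl4, the matrix protein Mmrn2 and the receptor subunit Ramp2, all of the pan-endothelial group. Of all 14439 genes tested, 6.41% were called in either direction and 2.04% were called lower. At an unadjusted p under 0.05 there were 6 higher and 8 lower endothelial genes, where 28.7% of all genes were under it. DESeq2 called 4 higher and 6 lower (18.6% of all genes were called by DESeq2), and limma-voom called 0 higher and the same 3 lower (5.97% of all genes). The values of the groups did not overlap for 15 of the 33 genes (5 higher and 10 lower in DOX), against 34.6% of all genes. Fitted log2 fold changes were negative for 21 genes and positive for 12, where 51.4% of all genes tested were negative. The median over the endothelial genes was -0.08, beside -0.01 for all genes tested. Scaled by library totals alone the median of all genes moved to -0.14, so directions of small changes depend on the scaling.

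**Figure D2:**
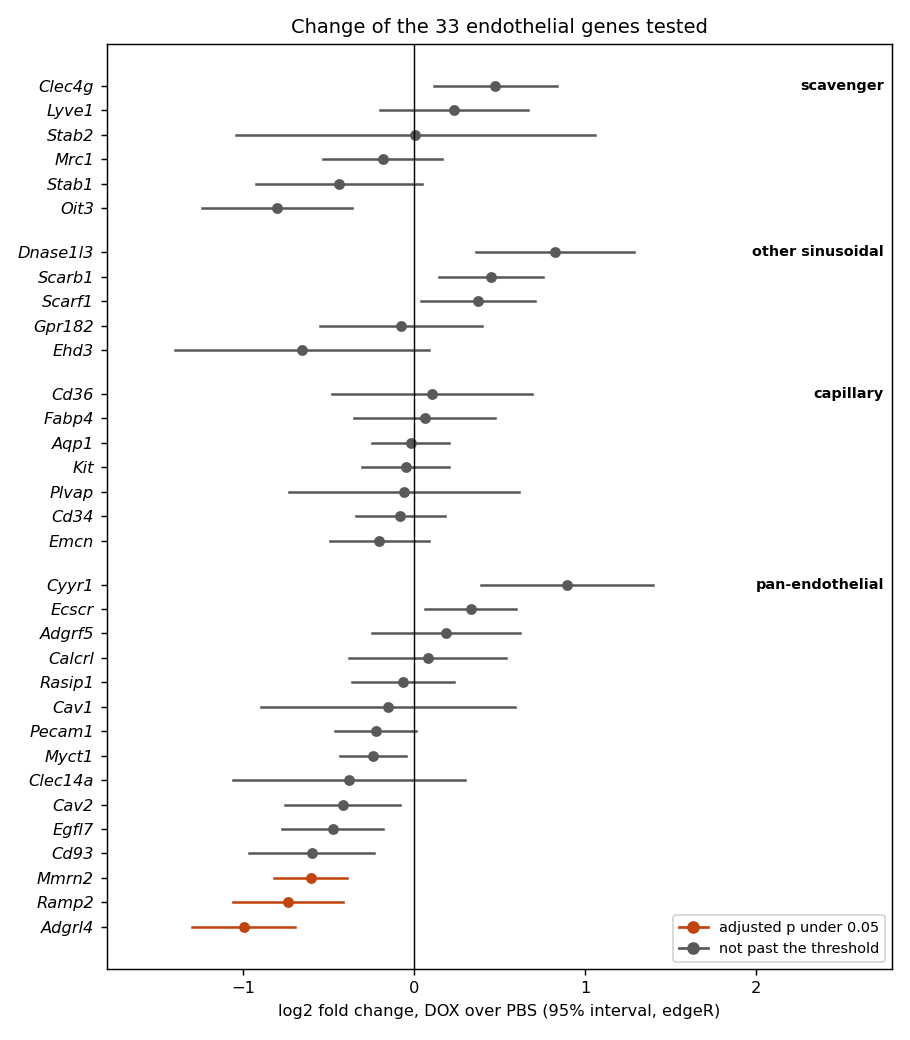
Fitted log2 fold change (DOX over PBS) of the 33 endothelial genes tested, with 95% intervals from edgeR. Genes are grouped by role and ordered by their change, and the genes in orange, Mmrn2, Ramp2 and Adgrl4, are those with an adjusted p under 0.05.

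The scavenger genes did not move as a block. None of the 6 passed the threshold in edgeR or limma-voom, 2 had an unadjusted p under 0.05, in opposite directions, and DESeq2 called these 2. Of all genes tested, 28.7% had an unadjusted edgeR p under 0.05 and 18.6% were called by DESeq2. Fitted changes of the 6 scavenger genes ran from -0.80 for Oit3 to 0.48 for Clec4g.

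Oit3, a secreted protein of sinusoidal endothelium with zona pellucida domains, had 86.9, 62.1 and 106 CPM in DOX replicates 1, 2 and 3, and 139, 151 and 155 CPM in PBS replicates 1, 2 and 3. All DOX libraries lay below all PBS libraries. The log2 fold change was -0.80 (SE 0.19, 95% interval -1.24 to -0.37), with an edgeR adjusted p = 0.0507, just short of a call, while DESeq2 gave an adjusted p = 0.0019. Without DOX replicate 3 Oit3 was called (log2 fold change -0.997, edgeR adjusted p = 0.0286). With any other single library left out it was not called, with edgeR adjusted p between 0.0578 and 0.147.

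Clec4g, a C-type lectin that marks sinusoidal endothelium, had 213, 152 and 179 CPM in the DOX libraries and 113, 129 and 148 CPM in the PBS libraries. Here all DOX libraries lay above all PBS libraries, by a small margin between DOX replicate 2 and PBS replicate 3. The log2 fold change was 0.48 (SE 0.15, 95% interval 0.12 to 0.84, edgeR adjusted p = 0.1004, DESeq2 adjusted p = 0.0392). Clec4g shares exon positions with Gm16553 on the opposite strand, which had 21 to 136 reads in DOX and 50 to 97 in PBS. Whether counting used the strand is not given in the sources used here. Per 100 normalised counts of Clec4g there were 40.9, 41.0 and 59.5 of Oit3 in the DOX libraries, against 123, 117 and 105 in the PBS libraries. The pair was set side by side after its values were seen, so the gap between the groups is a description with no test.

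The 2 stabilins are large scavenger receptors that take up hyaluronan and modified lipoproteins. Stab1 had 569, 501 and 459 CPM in the DOX libraries and 504, 692 and 880 CPM in the PBS libraries, so the groups overlapped (log2 fold change -0.44, 95% interval -0.93 to 0.04, edgeR adjusted p = 0.209). Stab2 had 528, 403 and 205 CPM in the DOX libraries and 185, 523 and 423 CPM in the PBS libraries. DOX replicate 3 and PBS replicate 1 were low and the remaining 4 libraries high, which crosses the groups. The fitted log2 fold change of Stab2 was 0.01 (95% interval -1.04 to 1.06, edgeR adjusted p = 0.994), negative by library totals (-0.15), and between -0.32 and 0.31 when libraries were left out in turn. The interval holds changes of 2-fold in either direction, so at this spread a loss or gain of that size could not be detected. F8, the coagulation factor gene transcribed in sinusoidal endothelium and named here after its values were seen, was low in the same libraries, with 564, 573 and 299 CPM in DOX and 287, 611 and 550 CPM in PBS.

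Lyve1 had 794, 890 and 585 CPM in the DOX libraries and 541, 685 and 704 CPM in the PBS libraries (log2 fold change 0.23, SE 0.18, edgeR adjusted p = 0.445). Mrc1, the mannose receptor, had 496, 423 and 392 CPM in the DOX libraries and 413, 525 and 552 CPM in the PBS libraries (log2 fold change -0.18, SE 0.15, edgeR adjusted p = 0.452). For both genes the groups overlapped. Lyve1, Mrc1 and Stab1 are also known in macrophages. The summed level of 24 macrophage markers was 10118 to 17620 CPM in DOX and 5332 to 8079 CPM in PBS, and its part in the values of these genes was not tested.

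**Figure D3:**
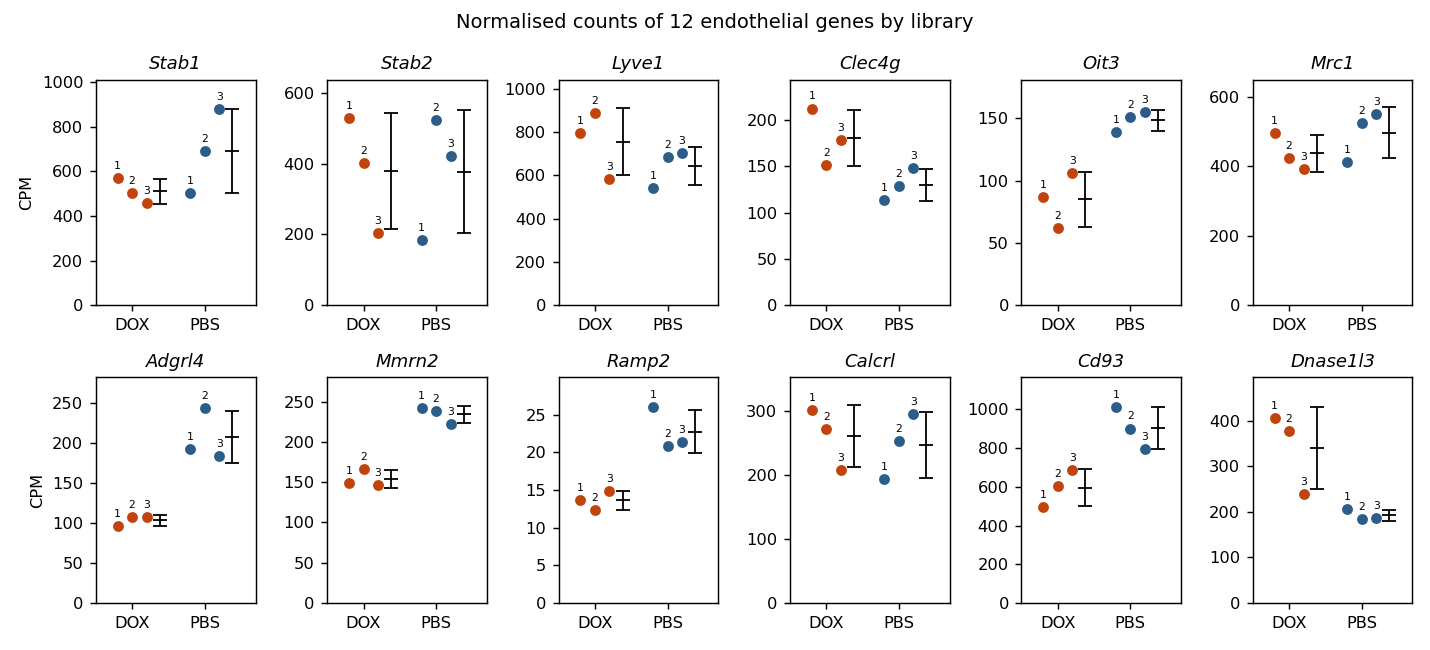
CPM of 12 endothelial genes in each library, with replicate numbers over the points and group mean and SD (n = 3) beside them. The upper row holds the 6 scavenger genes, where DOX and PBS separate for Clec4g and Oit3 in opposite directions. In the lower row Adgrl4, Mmrn2, Ramp2 and Cd93 lie lower in all DOX libraries, Dnase1l3 lies higher, and Calcrl overlaps.

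Set against the other endothelial genes, the scavenger genes did not differ between the groups beyond the spread of the libraries. Their mean log2 CPM was 8.50, 8.23 and 8.09 in DOX replicates 1, 2 and 3, and 8.04, 8.53 and 8.60 in PBS replicates 1, 2 and 3. The mean over the other 27 genes tested was 7.06, 7.04 and 6.96 in the DOX libraries and 7.09, 7.12 and 7.18 in the PBS libraries, a small gap with no overlap. Scavenger less other therefore stood at 1.25 ± 0.164 in DOX and 1.26 ± 0.269 in PBS (log2 scale, SD, n = 3 each), a gap between groups well within the spread. PBS replicate 1 had the lowest difference (0.95) and DOX replicate 1 the highest (1.44). The median log2 fold change was -0.09 over the scavenger genes and -0.08 over the other 27. The other 27 pool groups that differed, with medians of 0.37 (other sinusoidal), -0.05 (capillary) and -0.24 (pan-endothelial). With 1 library left out at a time the scavenger median lay between -0.31 (without PBS replicate 1) and 0.10 (without DOX replicate 3), so its sign rests on single libraries.

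**Figure D4:**
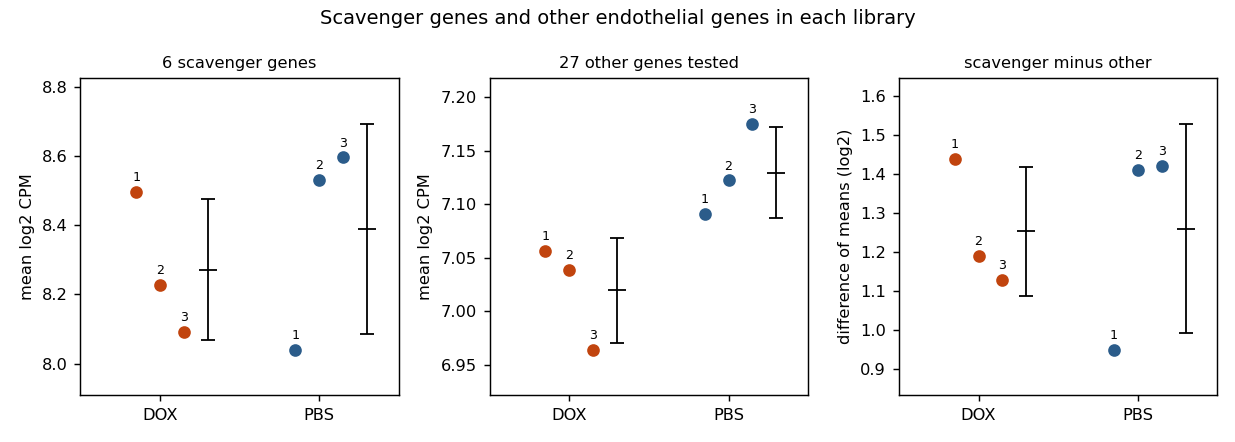
Mean log2 CPM of the 6 scavenger genes (left), of the 27 other genes tested (middle), and their difference (right), by library, with group mean and SD (n = 3). The vertical axes do not start at 0 and have different ranges. The difference averaged 1.25 in DOX and 1.26 in PBS, and PBS replicate 1 is lowest in the left and right panels.

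None of the 5 other sinusoidal genes passed the threshold in edgeR or limma-voom. At an unadjusted edgeR p under 0.05 there were 3, all with higher values in DOX (28.7% of all genes were under it). DESeq2 called 2 of these 3 (18.6% of all genes were called by DESeq2). Dnase1l3, a secreted DNase that degrades DNA in particles and chromatin, had 406, 377 and 239 CPM in the DOX libraries and 206, 184 and 187 CPM in the PBS libraries. All DOX libraries lay above all PBS libraries, DOX replicate 3 by the smallest margin (log2 fold change 0.82, SE 0.20, edgeR adjusted p = 0.0530, DESeq2 adjusted p = 0.0022). Without DOX replicate 3 Dnase1l3 was called (log2 fold change 1.03, edgeR adjusted p = 0.0126), and with library totals it was also called (0.69, edgeR adjusted p = 0.0469). Leaving out any other single library gave no call, with edgeR adjusted p between 0.0867 and 0.160. Dnase1l3 is also known in macrophages and dendritic cells. Scarb1, the HDL receptor, had 84.9, 61.5 and 73.4 CPM in the DOX libraries and 51.8, 51.6 and 57.6 CPM in the PBS libraries (log2 fold change 0.45, SE 0.13, edgeR adjusted p = 0.0795, DESeq2 adjusted p = 0.0263). Scarb1 is also made by hepatocytes, whose 20 markers summed to 627 to 4860 CPM in DOX and 358 to 703 CPM in PBS. All 20 hepatocyte markers had positive fitted changes, and DOX replicate 3 held the highest hepatocyte sum and the middle Scarb1 value of its group. The part of hepatocyte RNA in the Scarb1 values was not tested.

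Scarf1, a scavenger receptor of endothelial cells, had a fitted change of 0.37 on the log2 scale (SE 0.14, edgeR adjusted p = 0.140), with overlapping groups. Ehd3, an endocytic recycling protein that marks sinusoidal endothelium, had 107, 231 and 215 CPM in the DOX libraries and 378, 271 and 224 CPM in the PBS libraries. DOX replicate 1 and PBS replicate 1 stood apart at the low and the high end, and the other libraries were close together (log2 fold change -0.66, SE 0.31, edgeR adjusted p = 0.219). Gpr182, an atypical chemokine receptor, had 46.6, 37.2 and 56.0 CPM in DOX and 43.7, 41.7 and 62.0 CPM in PBS, which overlapped (log2 fold change -0.08, edgeR adjusted p = 0.836).

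The 7 capillary genes showed the smallest range of changes among the groups of genes, from -0.20 to 0.10 on the log2 scale. None had an unadjusted p under 0.05 in edgeR (28.7% of all genes had), and none was called by DESeq2 (18.6%) or limma-voom (5.97%). Kit is a receptor tyrosine kinase of central-lobule sinusoids, so its place among the capillary genes does not set it apart from sinusoidal genes. Kit had 415, 432 and 348 CPM in the DOX libraries and 402, 419 and 417 CPM in the PBS libraries (log2 fold change -0.05, SE 0.11). Kit is also a mast cell gene, and the part of mast cells in its values was not tested. Cpa3 had 8, 1 and 14 reads in DOX and 0, 0 and 2 in PBS, Cma1 had 4, 0 and 10 in DOX and 0 in each PBS library, and Mcpt4 had 1 read in DOX replicate 3 and 0 in the rest. Of the 6 mast cell genes in the table Hdc, which other myeloid cells also make, held nearly all of the sum of 158 to 384 CPM in DOX and 108 to 179 CPM in PBS.

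Aqp1, a water channel, had 356, 376 and 332 CPM in the DOX libraries and 337, 377 and 365 CPM in the PBS libraries. Cd34, a sialomucin that rises with capillarisation, had 40.4, 37.8 and 45.1 CPM in the DOX libraries and 41.0, 48.2 and 41.1 CPM in the PBS libraries. The groups overlapped for both, and the 95% interval of the log2 fold change was -0.25 to 0.20 for Aqp1 and -0.34 to 0.18 for Cd34. Plvap, which forms the diaphragms of capillary pores, had 190, 199 and 107 CPM in DOX and 131, 157 and 229 CPM in PBS, a spread within each group much wider than for Aqp1 (log2 fold change -0.06, edgeR adjusted p = 0.917). The fatty acid genes Cd36 (log2 fold change 0.10) and Fabp4 (0.06) overlapped between groups, and by library totals both values were negative (-0.03 and -0.07). Cd36 and Fabp4 are also adipocyte and macrophage genes. The adipocyte genes Adipoq (0 reads in DOX and 2 in PBS over 3 libraries each) and Plin1 (3 reads in DOX and 0 in PBS) were near 0. Emcn was the capillary gene whose groups did not overlap, with 11.6, 12.4 and 12.96 CPM in DOX and 14.3, 13.03 and 15.3 CPM in PBS, although the gap was small (log2 fold change -0.20, edgeR adjusted p = 0.315).

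Within the pan-endothelial group 3 of 15 genes tested fell (2.04% of all genes did), and 11 of 15 had negative fitted changes (51.4% of all genes had). At an unadjusted edgeR p under 0.05 there were 2 higher and 7 lower, where 28.7% of all genes were under it. DESeq2 called 1 higher and 5 lower, beside 18.6% of all genes. Adgrl4 (also called Eltd1), an adhesion G protein-coupled receptor of endothelial cells, lies on chromosome 3 from 151437882 to 151545081 (GRCm38), with the promoter window printed above. It had 96.0, 108 and 107 CPM in DOX replicates 1, 2 and 3, and 193, 245 and 184 CPM in PBS replicates 1, 2 and 3. The levels, 104 ± 6.83 CPM in DOX and 208 ± 32.6 CPM in PBS (SD, n = 3 each), did not overlap, and the fold was 2.00-fold lower in DOX (log2 fold change -0.999, SE 0.13, by edgeR with an adjusted p = 0.0208).

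Mmrn2, a matrix glycoprotein deposited around vessels, lies on chromosome 14 from 34375504 to 34404287. It had 149, 166 and 146 CPM in the DOX libraries and 243, 239 and 223 CPM in the PBS libraries, or 154 ± 10.9 CPM in DOX and 235 ± 10.6 CPM in PBS. Both groups were tight and far apart relative to their spread (1.52-fold lower in DOX, with a log2 fold change of -0.61, SE of 0.09 and edgeR adjusted p = 0.0244). Mmrn2 is known to bind the C-type lectin-like receptors Cd93 and Clec14a on the endothelial surface. Cd93 had 498, 607 and 685 CPM in the DOX libraries and 1015, 901 and 797 CPM in the PBS libraries, with no overlap between groups. Its log2 fold change was -0.60 (SE 0.15), close in size to that of Mmrn2, but it missed the threshold (edgeR adjusted p = 0.0625, DESeq2 adjusted p = 0.0041). Clec14a had 89.2, 41.4 and 60.1 CPM in the DOX libraries and 62.5, 89.8 and 96.4 CPM in the PBS libraries, which overlapped (log2 fold change -0.38, edgeR adjusted p = 0.422). Per 100 normalised counts of Cd93 there were 30.0, 27.4 and 21.4 of Mmrn2 in DOX and 23.9, 26.5 and 27.9 in PBS, again overlapping.

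Ramp2 encodes the membrane protein that turns the calcitonin receptor-like receptor, the product of Calcrl, into a receptor for adrenomedullin. It lies on chromosome 11 from 101246334 to 101248250. Ramp2 had 13.7, 12.3 and 14.8 CPM in the DOX libraries and 26.0, 20.9 and 21.3 CPM in the PBS libraries, or 13.6 ± 1.24 CPM in DOX and 22.7 ± 2.86 CPM in PBS. The groups did not overlap (1.67-fold lower in DOX, with a log2 fold change of -0.74, SE of 0.14 and edgeR adjusted p = 0.0325). Its exons overlap those of Vps25 on the same strand, so reads there cannot be assigned with certainty, and Vps25 had a log2 fold change of 0.21 (edgeR adjusted p = 0.311). Calcrl, the partner receptor, had 301, 272 and 207 CPM in the DOX libraries and 193, 252 and 294 CPM in the PBS libraries, which overlapped. Its log2 fold change was 0.08 (SE 0.19, edgeR adjusted p = 0.826) and -0.06 by library totals. Per 100 normalised counts of Calcrl there were 4.54, 4.54 and 7.15 of Ramp2 in DOX and 13.5, 8.27 and 7.25 in PBS. DOX replicate 3 and PBS replicate 3 were almost equal in this ratio, and the difference between the changes of these genes was not tested.

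The calls of these 3 genes depend on single libraries. Without DOX replicate 1, PBS replicate 2 or PBS replicate 3, none of them passed the threshold, with edgeR adjusted p of 0.0597, 0.0663 and 0.0739 for Adgrl4, 0.0747, 0.0786 and 0.0861 for Mmrn2, and 0.104, 0.0825 and 0.0978 for Ramp2. In those settings few or no genes of the whole table were called (85 without DOX replicate 1, 0 without PBS replicate 2 and 0 without PBS replicate 3). Ramp2 was also lost without DOX replicate 2 (edgeR adjusted p = 0.0704) and without PBS replicate 1 (0.0536). Over all alternatives run the log2 fold change stayed between -1.12 and -0.86 for Adgrl4, -0.73 and -0.57 for Mmrn2, and -0.86 and -0.63 for Ramp2.

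Among the remaining pan-endothelial genes Cyyr1, a small cysteine and tyrosine rich membrane protein, had the highest fitted change. It had 128, 110 and 83.9 CPM in the DOX libraries and 48.4, 50.7 and 74.5 CPM in the PBS libraries, with no overlap (log2 fold change 0.89, SE 0.21, edgeR adjusted p = 0.0540, DESeq2 adjusted p = 0.0026). It was called without DOX replicate 3 (log2 fold change 1.04, edgeR adjusted p = 0.0424). It was not called with any other single library left out (edgeR adjusted p between 0.0868 and 0.162). Egfl7, a secreted endothelial matrix protein, had 236, 194 and 215 CPM in DOX and 265, 293 and 340 CPM in PBS (log2 fold change -0.48, SE 0.13, edgeR adjusted p = 0.0668, DESeq2 adjusted p = 0.0142). Egfl7 was lower in every DOX library and was called with library totals (-0.61, edgeR adjusted p = 0.0389), and it overlaps exons of Agpat2. Pecam1 had 743, 748 and 681 CPM in DOX and 825, 895 and 821 CPM in PBS, also without overlap (log2 fold change -0.23, edgeR adjusted p = 0.188). Adgrf5, another adhesion receptor of endothelium, had 1231, 1094 and 754 CPM in DOX and 910, 868 and 927 CPM in PBS, so that DOX replicate 3 lay below all PBS libraries and the other two above them. The caveolins differed in spread. Cav1 had 49.9, 100 and 112 CPM in DOX and 70.1, 112 and 110 CPM in PBS (log2 fold change -0.15), and Cav2 had a log2 fold change of -0.42 (edgeR adjusted p = 0.113) with no overlap. Myct1, a target of ETS factors in endothelium, stood at -0.24 (edgeR adjusted p = 0.110), Ecscr, a regulator of endothelial migration, at 0.33 (0.113) and Rasip1, a Ras-interacting protein needed for vessel lumens, at -0.07 (0.773).

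Genes of a wider endothelial list were also tested. Of 37 other pan-endothelial genes 8 fell in DOX (2.04% of all genes did), 30 had negative fitted changes (51.4% of all genes had), and the median was -0.36, beside -0.01 for all genes. None rose in edgeR or limma-voom, while DESeq2 called 3 higher and 15 lower, and 4 were higher and 19 lower at an unadjusted edgeR p under 0.05, beside shares of 18.6% and 28.7% of all genes for these rules. Nos3, the endothelial nitric oxide synthase, had 39.2, 48.8 and 46.8 CPM in the DOX libraries and 104, 99.2 and 104 CPM in the PBS libraries, 2.28-fold lower in DOX (with a log2 fold change of -1.19, SE of 0.10 and edgeR adjusted p = 0.0164). The angiopoietin receptor Tek had 155, 225 and 204 CPM in the DOX libraries and 332, 352 and 332 CPM in the PBS libraries (log2 fold change -0.80, edgeR adjusted p = 0.0311). The others that fell were the adaptor She (-0.84), the phosphatase Ptprb, which dephosphorylates the Tek receptor (-0.76), the transcription factors Sox17 (-0.70) and Tal1 (-0.52), the Notch receptor Notch4 (-0.93) and the matrix protein Tinagl1 (-0.93), with edgeR adjusted p between 0.0206 and 0.0484. Of 18 other sinusoidal genes 1 fell. It was Gata4, the transcription factor that maintains sinusoidal identity, with 121, 145 and 190 CPM in the DOX libraries and 317, 268 and 308 CPM in the PBS libraries (log2 fold change -0.97, SE 0.17, edgeR adjusted p = 0.0304).

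Gene groups of vessel type were mixed. For comparison, 6.41% of all genes tested were called by edgeR, 18.6% by DESeq2 and 5.97% by limma-voom. The share with an unadjusted edgeR p under 0.05 was 28.7%. Of 12 capillarisation genes, which include Cd34 and Plvap, none was called by edgeR, DESeq2 or limma-voom and 1 (Pgf, placental growth factor, log2 fold change -0.75) had an unadjusted p under 0.05. Of 14 large vessel genes tested, Gja4, a connexin of arterial endothelium, rose (201, 204 and 66.7 CPM in DOX, 55.5, 31.5 and 37.7 CPM in PBS, log2 fold change 1.92, edgeR adjusted p = 0.0489). The venous genes Nr2f2 (-0.59) and Ephb4 (-0.67) fell (edgeR adjusted p = 0.0415 and 0.0450). At an unadjusted edgeR p under 0.05, 5 large vessel genes were higher and 3 lower. DESeq2 called 4 of the list higher and 3 lower. With limma-voom 0 were higher and 3 lower, so Gja4 was not called there. Of 8 genes of the portal side of the sinusoid, Msr1, a scavenger receptor that is also a macrophage gene, rose 2.33-fold in DOX (edgeR adjusted p = 0.0206) and Sox17 fell. None of 7 genes of the central side passed in edgeR, DESeq2 or limma-voom, and 2 had an unadjusted p under 0.05. Fitted changes were negative for all 7, from -1.89 to -0.05, where 51.4% of all genes were negative. None of 6 lymphatic genes tested passed in these tools or had an unadjusted p under 0.05, and Prox1, the factor that defines lymphatic endothelium, had 3.30 to 3.83 CPM in DOX and 2.47 to 3.66 CPM in PBS.

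**Figure D5:**
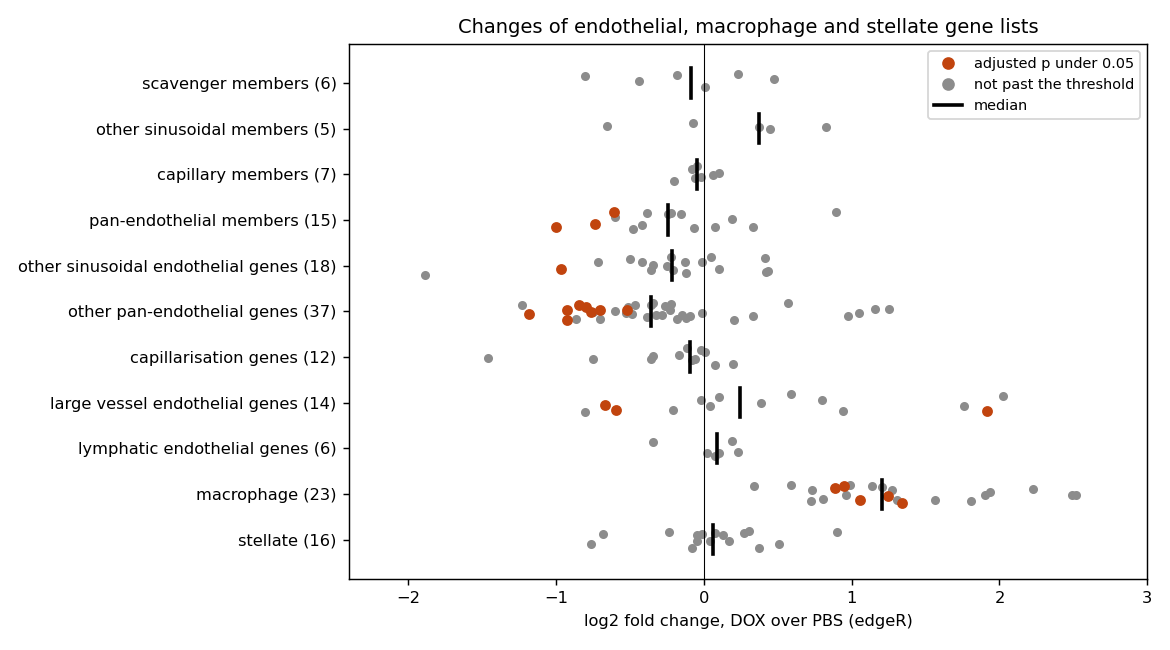
Fitted log2 fold change (DOX over PBS) of single genes in 11 lists, with the number tested in brackets. Orange points passed an adjusted p of 0.05 and black bars are medians. The pan-endothelial lists lie mostly below 0 and the macrophage list above 0, and some genes stand in more than 1 list.

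Markers of other cells moved beside these genes. All 23 macrophage markers tested had positive fitted changes and 5 rose (C1qb, C1qc, Itgam, Fcer1g and Cybb), with Mpeg1 at 2663, 1655 and 2000 CPM in DOX and 1442, 1377 and 990 CPM in PBS. All 20 hepatocyte markers had positive fitted changes and 1 rose (Hp), with Alb at 346, 116 and 1862 CPM in DOX and 85.4, 166 and 209 CPM in PBS. Of other lists, 1 of 6 cholangiocyte genes tested, 1 of 13 fibroblast and mesothelial genes and 2 of 7 T and NK cell genes rose. The 1 adipocyte gene tested also rose. Of all 14439 genes tested, 632 rose. DESeq2 called 18 macrophage, 12 hepatocyte and 6 T and NK cell genes higher, beside 1677 of all genes. It called 1 cholangiocyte gene higher, and 1 fibroblast and mesothelial gene higher and 2 lower. T and NK genes summed to 7.24 to 16.9 CPM in DOX and 0.960 to 4.06 CPM in PBS. In the same libraries the median log2 fold change was -0.09 over the scavenger genes and 0.37 over the other sinusoidal genes. It was -0.05 over the capillary genes and -0.24 over the pan-endothelial genes tested. The part of other cell types in these medians, or in the lower values of Adgrl4, Mmrn2 and Ramp2, was not tested. Platelet genes, which can carry Mmrn1 and Pecam1 transcripts, summed to 17.6 to 18.3 CPM in DOX and 9.89 to 19.8 CPM in PBS, with Gp9 at 0 to 2 reads in each library.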

How the data were processed

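Per the labels' protocols, an RNeasy kit gave the RNA and a SMARTER kit for mRNA the libraries. The authors deposited raw counts and an FPKM table, per the file headers, with 1 column per library. The deposited FPKM values equalled the counts rescaled by library total and a fixed gene length for 20588 of 20588 genes (relative tolerance 1e-04). Not given in the sources used here are the aligner, counter and strand setting, and the submitters' processing notes name GRCm38, mm10 and hg38 with no role. Replicates differed by more than sampling noise (chi-square per degree of freedom 38.6 to 82.1).

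Genes were tested in edgeR 4.0.16 (R 4.3.3) by quasi-likelihood on the counts, with TMM factors (0.923 to 1.01 in DOX, 1.02 to 1.06 in PBS), filterByExpr (minimum count 10, minimum total count 15), group as the only term, all 6 libraries and two-sided p adjusted by Benjamini-Hochberg over the 14439 genes tested, with a threshold of 0.05. The common biological coefficient of variation was 0.230. Values after ± are SDs. Means of log2 CPM used a prior count of 0.5. A count of 0 allows up to 3 reads, or 0.0758 to 0.0878 CPM, for counting error only. The code was tested on simulated counts.

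Alternatives were library totals alone, upper-quartile or RLE factors, no filter or a filter of 5 CPM in 3 libraries, DESeq2 1.42.0, limma-voom (limma 3.58.1), a block for the replicate number, log2 of FPKM with 0.1 or 1 added, tested in limma, the last also with at least 1 FPKM required in 3 libraries, and each library left out. The 34 genes, their groups and the other lists were chosen with earlier results of these data known. The genes named were all 34, the called genes of each endothelial list, up to 4 genes with the lowest p and the 2 most abundant of each list of another cell type, with others marked or named as defining markers. Coordinates and promoters come from RefSeq GRCm38.p6, where all 34 symbols matched, and exon overlaps from GENCODE M21.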

Additional observations from a re-analysis of the deposited data

How the results depend on the processing

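Of 561 values of single genes under 17 alternatives, 490 kept their direction and their side of the threshold, 11 lost the call, 25 gained one and 35 changed sign. Over all genes, 632 were higher and 294 lower in DOX. DESeq2 gave 1677 higher and 1015 lower, library totals 730 lower, the replicate block 159 lower, log2(FPKM + 0.1) 464 lower and log2(FPKM + 1) with a filter of 1 FPKM 678 lower. Leaving out 1 library gave 0 to 722 higher and 0 to 368 lower. Of the endothelial genes, 0 were higher and 3 lower. Library totals gave 1 higher and 6 lower, no filter 2 higher and 4 lower, 5 CPM 1 higher and 3 lower, DESeq2 4 higher and 6 lower, log2(FPKM + 0.1) 6 lower and log2(FPKM + 1) with the filter 7 lower. Leaving out 1 library gave 0 to 2 higher and 0 to 4 lower. Correlations between DOX and PBS libraries of the same replicate number were 0.0939, -0.106 and 0.216 for numbers 1, 2 and 3. Between libraries of different numbers they ran from -0.250 to 0.150. With 3 libraries per group these values cannot settle whether the numbers pair the libraries. With the block the same 3 genes were called.

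The median of the other 27 genes was -0.20 by library totals, -0.19 with log2(FPKM + 1), -0.20 with log2(FPKM + 0.1), -0.19 with the FPKM filter and -0.16 to -0.0444 without 1 library. Signs turned for genes near 0. Stab2 was -0.0184 with upper-quartile factors, -0.15 by totals, -0.0957 with log2(FPKM + 1), filtered or not, and -0.0966 with log2(FPKM + 0.1). In the same order, without the first, the values were -0.0286, -0.0659 and -0.0669 for Cd36, -0.0660, -0.0514 and -0.0515 for Fabp4, and -0.0593, -0.0436 and -0.0442 for Calcrl. Without 1 library Stab2 ranged over -0.32 to 0.31, Gpr182 -0.23 to 0.12, Plvap -0.22 to 0.20, Kit -0.11 to 0.0377, Aqp1 -0.0679 to 0.0248, Cd36 -0.18 to 0.31, Fabp4 -0.0417 to 0.26, Cav1 -0.37 to 0.13, Calcrl -0.0738 to 0.22 and Rasip1 -0.18 to 0.00679. The cause of these turns was not tested. Library totals and FPKM do not apply TMM factors, which were lower in DOX.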
